A study of Mus musculus with 12 samples.

Results

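The genes described here are 7 chemokine receptors, *Ccr1*, *Ccr2*, *Ccr3*, *Cx3cr1*, *Cxcr2*, *Cxcr4* and *Ccrl2*, out of 18193 genes measured in mouse peritoneal macrophages (PMs). They were taken by name, and where several probe sets measured a gene, the one with the highest mean over the arrays stood for it. All 7 genes were measured on all 12 Affymetrix mouse expression arrays, and no filter on low signal was applied. Values are log2 signals, so a difference of 1 is a doubling.

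The study addressed how miR-21 of the macrophage itself and miR-21 delivered by sensory neurons act on macrophage gene expression. PMs were transfected in 3 ways, with lipofectamine alone (the reagent, written Lipofectamin in the labels and read here as given without an oligonucleotide), with scramble, an oligonucleotide of no given target, or with antagomir-21, which binds and blocks miR-21. Each received exosomes, small vesicles shed by cells, from sensory neurons that overexpressed either miR-21 or a GFP reporter, which gave 6 groups of 2 arrays. The cells of all groups came from lavage of the peritoneal cavity and were kept by adhesion to plastic, not by a sort, and the study's mice were C57BL/6. The age of the mice that gave the PMs is not stated in the labels. The methods describe independently collected triplicates, whereas 2 arrays per group are analysed here.

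The sequence that the antagomir targets and that the neurons overexpressed is shown because all comparisons below turn on it. In the RefSeq annotation of GRCm38.p6 the mature miRNA lies at chr11:86584120-86584141 on the minus strand, and the capitals mark its seed, bases 2 to 8, through which a miRNA pairs with its targets.
mmu-miR-21a-5p: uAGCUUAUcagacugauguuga
No target site in the receptors was searched for, and the miRNA itself is not measured by these arrays.

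Chemokine receptors are G protein–coupled receptors that direct leukocytes along gradients of small secreted proteins. Monocytes of the inflammatory type leave the bone marrow through CCR2, and patrolling monocytes and many tissue macrophages are known by CX3CR1, the fractalkine receptor. Large resident macrophages of the peritoneum, in contrast, are usually low in both. CCR1 and CXCR4 are found on many myeloid cells, CCRL2 is an atypical receptor that binds chemerin without signaling, CCR3 is best known from eosinophils, and CXCR2 from neutrophils.

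The cells carried the macrophage label in these data. *Csf1r*, the receptor for the macrophage growth factor, and *Adgre1*, a surface marker of mature macrophages, had mean signals of 16.43 ± 0.67 and 12.87 ± 0.64 (SD over 12 arrays). As a reference for low signal, 38 olfactory receptor genes were used, whose 95th percentile lay between 8.46 and 9.77 depending on the array, and 6 of 8 macrophage markers lay above it on every array. Of 10 markers of large resident macrophages, 5 did so on every array and 8 on 6 or more, with *Gata6* and *Timd4* on 6 arrays each. Of 8 monocyte markers measured, 1 lay above the reference on every array, 3 on 6 or more and 3 on none, and *Ly6c2* is not analysed here. Of 10 markers of small peritoneal macrophages, which derive from monocytes, 3 lay above it on every array, 5 on 6 or more and 3 on none. Of 7 neutrophil markers, 0 lay above it on every array, 3 on 6 or more and 3 on none, with *S100a8* on 6 and *S100a9* on 2. Of 4 eosinophil markers, 0 lay above it on every array, 1 on 6 or more and 2 on none, with *Siglecf* on 2 arrays and *Epx* among the latter. Of 6 B cell markers, 2 lay above the reference on all 12 arrays, *Ms4a1* and *Ighm* (named after their values were seen). In the same list 4 did so on 6 or more arrays and 1, *Pax5*, on none. In such a mixed population, fewer cells of a type and less RNA per cell cannot be told apart.

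Of the 7 receptors, *Ccr1* and *Cxcr4* stood above the olfactory reference on all 12 arrays. *Ccr2* did so on 8 arrays, *Ccrl2* on 3, *Ccr3* on 2, *Cxcr2* on 1 and *Cx3cr1* on none. The genes with high signal were also the steadier ones. The SD within groups was 0.54 for *Ccr1* and 0.97 for *Cxcr4*, against a median of 1.39 over all genes. It was 1.30 for *Ccr2*, 1.43 for *Cxcr2*, 1.59 for *Cx3cr1*, 1.60 for *Ccrl2* and 2.25 for *Ccr3*. Because probe sets differ in how well they bind, these figures place each receptor against a reference for low signal and do not rank the receptors by abundance.

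**Figure D1:**
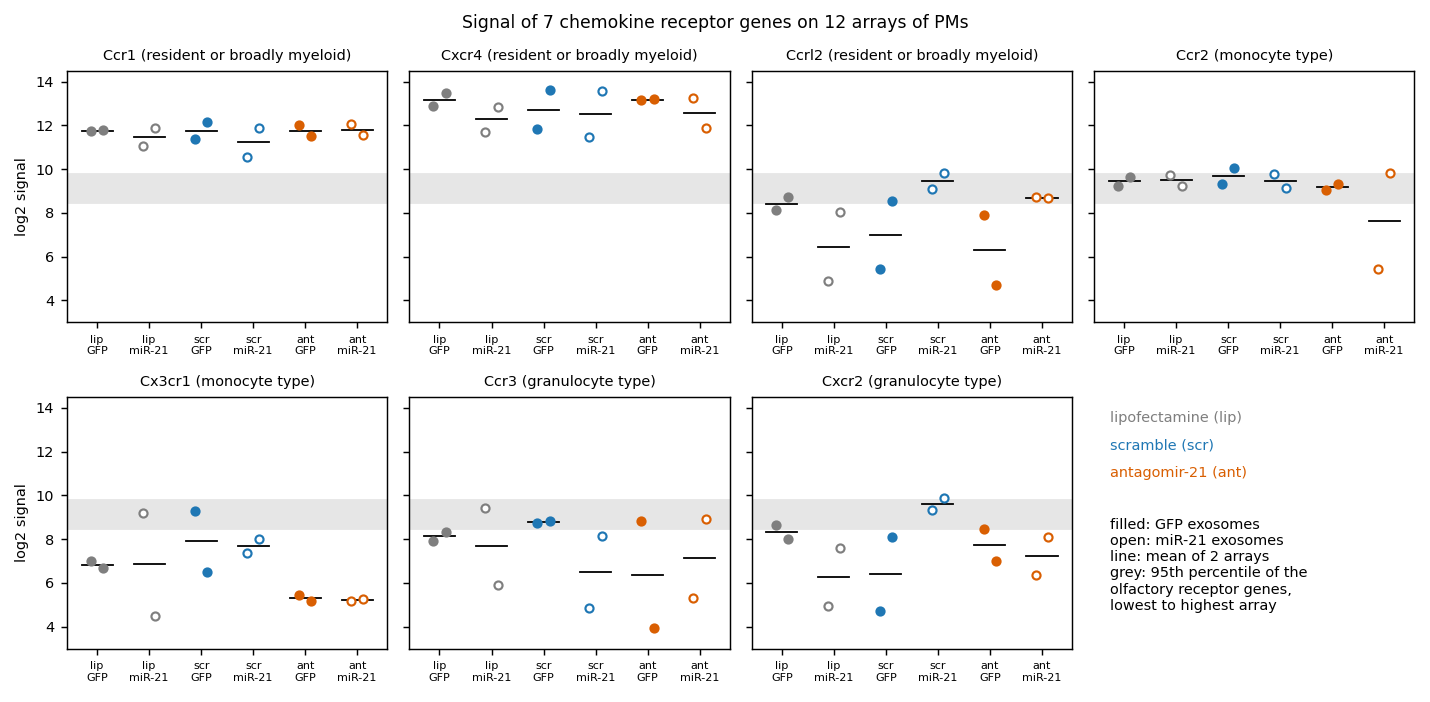
Log2 signal (y axis) of the 7 receptor genes in the 6 groups (x axis), with 1 point per array and a line at the mean of the 2 arrays, and with the grey band showing the olfactory 95th percentile from the lowest (8.46) to the highest array (9.77). *Ccr1* and *Cxcr4* lie above the band throughout, *Cx3cr1* lies at 5.16 to 5.43 on the 4 antagomir-21 arrays, *Ccr2* lies between 9.04 and 10.07 on 11 arrays and at 5.45 on 1, and *Ccrl2*, *Ccr3* and *Cxcr2* scatter widely within groups.

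*Ccr1*, a receptor for CCL3, CCL5, CCL6 and CCL9 that is shared by monocytes, macrophages and neutrophils, varied little. After lipofectamine its signal was 11.72 and 11.76 with GFP exosomes and 11.07 and 11.90 with miR-21 exosomes. After scramble it was 11.36 and 12.16 with GFP exosomes and 10.56 and 11.87 with miR-21 exosomes. After antagomir-21 it was 12 and 11.52 with GFP exosomes and 12.04 and 11.57 with miR-21 exosomes. All groups overlapped, and the group means spanned 0.59, against an SD within groups of 0.54.

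Over the 3 transfections, miR-21 exosomes against GFP exosomes gave a difference for *Ccr1* of −0.25 (SE 0.45, 95% confidence interval −1.23 to 0.72). Antagomir-21 against scramble gave 0.29 (SE 0.65, interval −1.17 to 1.75). A change of *Ccr1* by 1 on the log2 scale in either direction lies within that interval. A second *Ccr1* probe set, with a mean signal of 10.49, did not follow the first (r = 0.05 over 12 arrays).

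*Cxcr4*, the receptor for CXCL12 that holds leukocytes in bone marrow and tissue, had signals of 12.88 and 13.46 after lipofectamine with GFP exosomes and of 11.71 and 12.85 with miR-21 exosomes. In scramble-transfected PMs the values were 11.82 and 13.60 with GFP exosomes and 11.45 and 13.59 with miR-21 exosomes. Antagomir-21–transfected PMs gave 13.14 and 13.21 with GFP exosomes and 13.26 and 11.88 with miR-21 exosomes. The mean was lower with miR-21 than with GFP exosomes after each transfection, but the arrays separated only after lipofectamine, as they did in the lower direction for 15.8% of all genes. The difference over all transfections was −0.57 (SE 0.56, interval −1.78 to 0.65), with an adjusted p of 0.945 in limma.

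*Ccrl2*, which presents chemerin to neighboring cells, was less even. With miR-21 exosomes it reached 9.10 and 9.81 after scramble and 8.72 and 8.66 after antagomir-21, against 5.45 and 8.55 and against 7.92 and 4.69 with GFP exosomes. After lipofectamine the order was turned, with 4.90 and 8.02 for miR-21 exosomes and 8.12 and 8.73 for GFP exosomes. The exosome groups did not overlap in any of the 3 transfections, higher with miR-21 after scramble and antagomir-21 and lower after lipofectamine. Between 2 arrays and 2 arrays such a separation is frequent. It was found in the higher direction for 16.7% of all genes after scramble and 15.9% after antagomir-21, against the 15.8% in the lower direction after lipofectamine given above. The differences were 2.45 (SE 1.44) after scramble, 2.39 (SE 1.44) after antagomir-21 and −1.97 (SE 1.44) after lipofectamine. Each rested on 1 low array. Without replicate 1 of scramble with GFP exosomes the first was 0.90, without replicate 2 of antagomir-21 with GFP exosomes the second was 0.78, and without replicate 1 of lipofectamine with miR-21 exosomes the third was −0.41. Without the other replicate of the same group they were 4.0, 4.0 and −3.52, with unadjusted p values of 0.0367, 0.0347 and 0.0572 and adjusted p values of 0.632, 0.724 and 0.516 in limma. With all arrays none passed an unadjusted p under 0.05, and pooled over transfections the difference was 0.96 (SE 0.97, interval −1.14 to 3.06).

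Among the monocyte-type receptors, *Ccr2*, which binds CCL2 and draws inflammatory monocytes into tissue, was steady except on 1 array. Its signal was 9.23 and 9.66 after lipofectamine with GFP exosomes and 9.74 and 9.24 with miR-21 exosomes. After scramble the values were 9.32 and 10.07 with GFP exosomes and 9.77 and 9.13 with miR-21 exosomes. After antagomir-21 they were 9.04 and 9.34 with GFP exosomes and 5.45 and 9.80 with miR-21 exosomes. Replicate 1 of antagomir-21 with miR-21 exosomes thus stood at 5.45, and the other 11 arrays lay between 9.04 and 10.07.

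Antagomir-21 against scramble gave a *Ccr2* difference of −1.16 (SE 0.96, interval −3.34 to 1.01, adjusted p = 1.0 in limma), and without that replicate it was −0.16. The other 3 probe sets of *Ccr2* had lower mean signals, of 6.91, 6.73 and 6.54. On them the same array read 6.55, 4.73 and 7.66, and replicate 2 of its group read 5.56, 3.58 and 4.21. On the probe set with a mean of 6.73, both arrays of the group lay below all others, which ran from 5.50 to 8.55. The antagomir-21 differences of the 3 probe sets were −0.94, −1.85 and 0.17.

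*Cx3cr1* gave the largest difference of the 7 genes between antagomir-21 and scramble. Its signal was 5.43 and 5.17 in antagomir-21–transfected PMs with GFP exosomes and 5.16 and 5.28 with miR-21 exosomes. In scramble-transfected PMs it was 9.28 and 6.52 with GFP exosomes and 7.38 and 8.0 with miR-21 exosomes. The 4 antagomir-21 arrays thus lay close together and below all 4 scramble arrays. After lipofectamine the signal was 6.98 and 6.68 with GFP exosomes and 9.22 and 4.51 with miR-21 exosomes, which spans both ranges.

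The difference between antagomir-21 and scramble over both exosomes was −2.54 for *Cx3cr1* (SE 0.74, interval −4.22 to −0.85, unadjusted p = 0.0077 and adjusted p = 0.80 in limma). *Cx3cr1* was the only receptor of the 7 at an unadjusted p under 0.05 in this comparison, where 3.13% of all genes fell below that threshold in the lower direction, and 1.2% had all antagomir-21 arrays below all scramble arrays. The call failed the adjustment over 18193 genes. With GFP exosomes the difference was −2.60 (SE 1.44) and with miR-21 exosomes −2.47 (SE 1.44). The arrays separated in both, as 16.7% and 14.9% of all genes did in the lower direction, and with miR-21 exosomes *Cxcr2* and *Ccrl2* were lower without overlap too. The difference between the 2, the interaction, was 0.13 (SE 2.03, adjusted p = 1.0 in limma). Leaving out 1 array at a time left the difference over both exosomes between −3.08 and −1.97. Within GFP exosomes alone it ran from −1.22 without replicate 1 of scramble to −3.98 without replicate 2 of scramble, and within miR-21 exosomes from −2.79 to −2.16.

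A second *Cx3cr1* probe set did not show this difference. It had a mean signal of 6.57, close to the 6.63 of the first, and read 8.35 and 8.20 in antagomir-21–transfected PMs with GFP exosomes and 3.69 and 5.39 with miR-21 exosomes, against 5.45, 6.32, 6.89 and 5.04 after scramble. Its difference between antagomir-21 and scramble was 0.48, and the correlation of the probe sets over the 12 arrays was −0.27. The mean over both probe sets gave −1.03 (unadjusted p = 0.153 and adjusted p = 1.0 in limma). The first probe set lay under the olfactory reference on all 12 arrays, and the second reached at most 8.84.

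**Figure D2:**
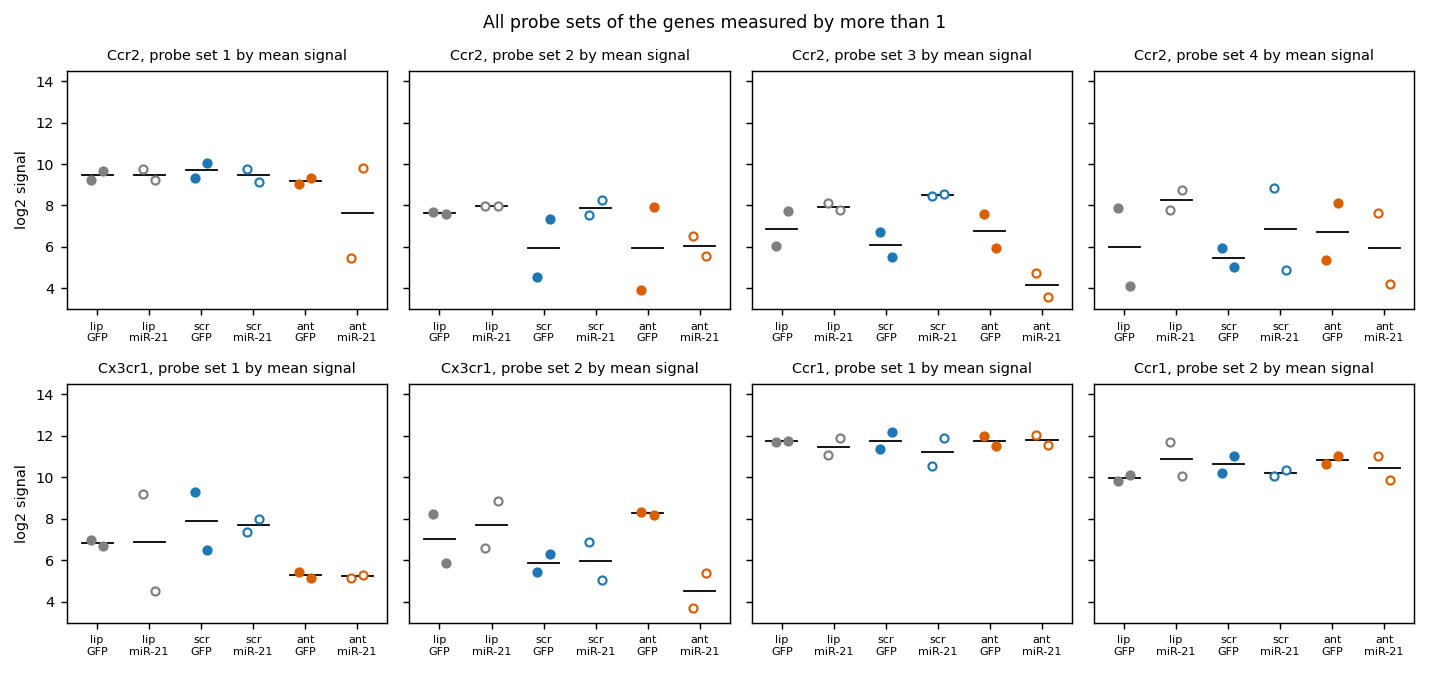
Log2 signal (y axis) of every probe set of *Ccr2*, *Cx3cr1* and *Ccr1* in the 6 groups (x axis: lip, lipofectamine; scr, scramble; ant, antagomir-21), numbered by mean signal, with filled points for GFP exosomes, open points for miR-21 exosomes and a line at the mean of 2 arrays. The low antagomir-21 values of the first *Cx3cr1* probe set (5.16 to 5.43) are not seen with GFP exosomes on the second (8.35 and 8.20). The low *Ccr2* array (5.45) stands apart on the first probe set, and on the third both arrays of its group are the lowest (4.73 and 3.58).

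Marker lists of other cells were read for the same comparison. The 8 monocyte markers had a list mean of 7.48 to 8.35 with antagomir-21 and of 7.54 to 8.27 with scramble, with 5 higher and 3 lower and none at an unadjusted p under 0.05. Of 8 macrophage markers, 7 were higher with antagomir-21, with a list median of 0.80 and list means of 11.83 to 13.36 against 11.53 to 12.75. Of 10 markers of large resident macrophages, 8 were higher, with a median of 0.31 and list means of 9.77 to 10.82 against 9.62 to 10.88. None of either list reached the unadjusted threshold. All 5 dendritic cell markers and all 7 sensory neuron markers were lower with antagomir-21, with list medians of −0.86 and −1.51 against −0.00 for all genes. Of these, *Prph* (−2.62) and *Isl1* (−2.66), both of peripheral neurons, passed the unadjusted threshold, and the list means of the neuronal markers overlapped (5.67 to 7.31 with antagomir-21, 6.89 to 8.04 with scramble). Signals of both lists were low. Of the 7 neuronal markers, 0 lay above the olfactory reference on every array and 4 on none, with *Prph* on 0 arrays and *Isl1* on 4. Of the 5 dendritic cell markers, 0 did so on every array and 2 on none. The part of any of these lists in the *Cx3cr1* difference was not tested.

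The granulocyte-type receptors gave the widest scatter. *Cxcr2*, through which neutrophils follow CXCL1 and CXCL2, read 9.34 and 9.89 in scramble-transfected PMs with miR-21 exosomes and 4.73 and 8.11 with GFP exosomes. After lipofectamine it read 4.95 and 7.61 with miR-21 exosomes and 8.66 and 8.0 with GFP exosomes. After antagomir-21 it read 6.35 and 8.11 with miR-21 exosomes and 8.46 and 7.01 with GFP exosomes. The exosome groups separated upward after scramble and downward after lipofectamine, and they overlapped after antagomir-21.

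After scramble, miR-21 against GFP exosomes gave a *Cxcr2* difference of 3.19 (SE 1.33, interval 0.23 to 6.16, unadjusted p = 0.0371 and adjusted p = 0.835 in limma). This was the 1 receptor of 7 at the unadjusted threshold, which 3.47% of all genes passed in the higher direction. The difference rested on replicate 1 of scramble with GFP exosomes, at 4.73, and without it was 1.5 (unadjusted p = 0.317 in limma). Without replicate 1 or 2 of the miR-21 exosomes it stayed at 3.47 and 2.92, with unadjusted p values of 0.0735 and 0.122 in limma. After lipofectamine the difference was −2.05 (SE 1.33) and after antagomir-21 −0.51 (SE 1.33). The interaction of antagomir-21 with exosomes was −3.70 (SE 1.89, unadjusted p = 0.0775 and adjusted p = 0.995 in limma). Of 7 neutrophil markers, 5 were lower and 2 higher with miR-21 exosomes after scramble, with list means of 7.77 and 7.62 against 8.81 and 7.97. Among the lower ones, *Ltf* passed the unadjusted threshold (−3.22, SE 1.33, adjusted p = 0.830 in limma). It lay above the olfactory reference on 0 arrays. T and NK cell markers stood higher by list mean in that comparison (8.27 and 6.65 against 6.17 and 6.04). Of 6 markers, 4 were higher and 2 lower, with a median of 2.53. At the unadjusted threshold *Cd4*, *Cd8a* and *Ncr1* were higher and *Cd3g* was lower. Of the 6, 0 lay above the olfactory reference on 6 or more arrays and 3 on none. The 6 B cell markers were all higher too, with list means of 9.37 and 10.33 against 8.31 and 8.91 and a median of 0.64, and none reached the unadjusted threshold. The part of these cells in the *Cxcr2* difference was not tested.

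*Ccr3*, the eotaxin receptor, ran from 3.92 to 9.44. With GFP exosomes it read 7.93 and 8.32 after lipofectamine, 8.72 and 8.83 after scramble and 8.84 and 3.92 after antagomir-21. With miR-21 exosomes it read 9.44 and 5.91, 4.85 and 8.16, and 5.33 and 8.94 in the same order. The exosome groups separated after scramble alone, lower with miR-21 (−2.27, SE 1.88), as they did for 12.2% of all genes in that direction. Of the eosinophil markers measured, 3 of 4 were higher in that comparison and 1 was lower. Among the higher ones, *Prg2* passed the unadjusted threshold (4.08, SE 1.25, adjusted p = 0.738 in limma). It lay above the olfactory reference on 0 arrays.

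Taking each receptor over the 6 groups, a moderated F test in limma gave unadjusted p values from 0.205 (*Cxcr2*) to 0.978 (*Ccr1*). When the group means of a receptor were put in order, 0 of the 35 steps between neighboring groups exceeded 2 standard errors of the difference. Ordering the means keeps the steps between neighbors small, so this count cannot show that the groups are alike. The share of such steps over all genes was not computed. In 10 comparisons of 7 receptors, 70 tests in all, 2 had an unadjusted p under 0.05, those of *Cx3cr1* and *Cxcr2* above, and none passed an adjusted p under 0.05, the lowest being 0.80. Over all genes, 0% passed the adjusted threshold in each comparison. The unadjusted threshold was passed by 5.36% of all genes for the exosomes over all transfections, 4.58% for antagomir-21 against scramble and 4.42% for scramble against lipofectamine. Within single groups the share was 5.38% and 5.3% for antagomir-21 with GFP and with miR-21 exosomes, and 3.84%, 5.7% and 5.68% for the exosomes after lipofectamine, scramble and antagomir-21. For the interaction it was 5.36%, and for any difference among the groups 5.96%.

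For miR-21 against GFP exosomes over all transfections, 2 of 7 receptors had a higher and 5 a lower mean, with a median difference of −0.25 against −0.02 for all genes, and none reached an unadjusted p under 0.05. For antagomir-21 against scramble, 2 were higher and 5 lower, with a median of −0.73 against −0.00. For scramble against lipofectamine, 4 were higher and 3 lower, with a median of 0.10 against −0.00, and none reached the unadjusted threshold. These comparisons share arrays. Scramble against lipofectamine compares a transfected oligonucleotide with the reagent, if lipofectamine was given without one. *Cx3cr1* was 0.95 (SE 1.06) higher and *Cxcr2* 0.71 (SE 1.26) higher after scramble than after lipofectamine, both with intervals that include 0. For *Cx3cr1* the second probe set gave −1.46 and the mean over probe sets −0.25.

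**Figure D3:**
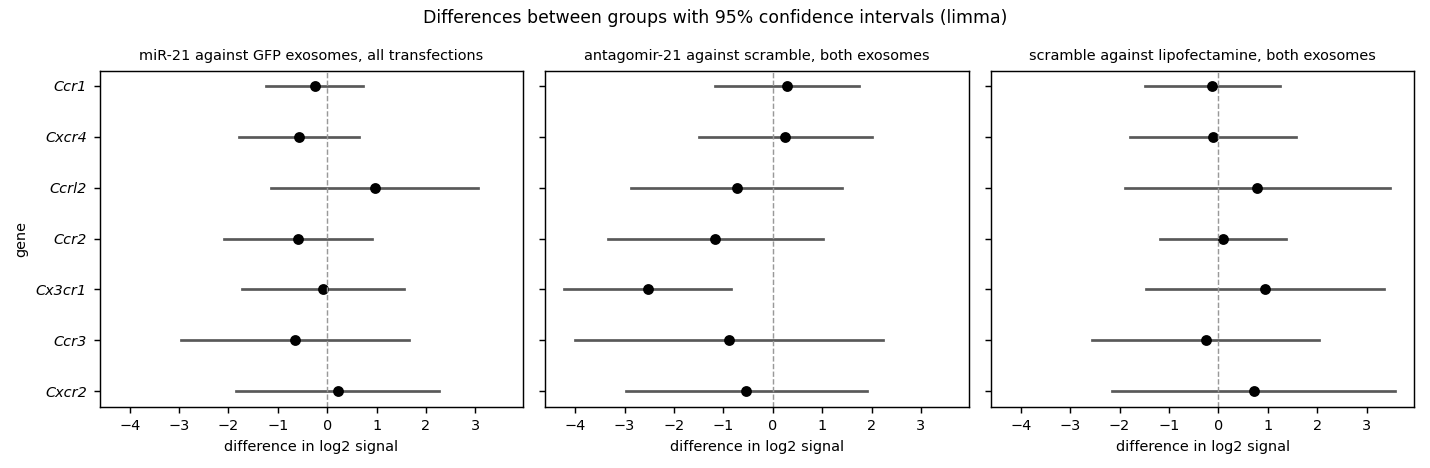
Difference in log2 signal (x axis, points) with 95% confidence interval (lines) for each receptor (y axis) in 3 comparisons fitted with limma. Of the 21 intervals, the one of *Cx3cr1* for antagomir-21 against scramble, from −4.22 to −0.85, does not include 0, and those of *Ccr1* and *Cxcr4* are the narrowest for the exosome comparison.

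Over the 12 arrays, the closest pair of receptors was *Ccr1* and *Cxcr4*, with a Pearson r of 0.843 and a Spearman rho of 0.776. Among 28 relations computed (21 pairs of receptors and the relation of each receptor to the spread of its array), permutation p values for this pair were 0.00031 and 0.0044, and after Benjamini-Hochberg adjustment 0.00868 and 0.123. Without the 2 arrays farthest from the median of *Ccr1*, r was 0.713. Both genes also went with the SD of the log2 signals of the whole array, which ran from 2.04 to 2.48, with r = 0.593 for *Ccr1* and 0.663 for *Cxcr4* (adjusted permutation p = 0.276 and 0.198). After quantile normalization, which gives every array the same distribution, the r of the pair was 0.492. How much of the pair's relation comes from the spread of the arrays was not tested further. The pair was read on the first *Ccr1* probe set. The second, with a mean signal of 10.49, had r = 0.05 with the first, and its relation to *Cxcr4* was not tested.

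*Cxcr2* and *Ccrl2* were the next closest pair, with r = 0.783 and rho = 0.622 (adjusted permutation p = 0.0553 and 0.320). The r was 0.840 after quantile normalization, and 0.532 without the 2 arrays farthest from the median of *Cxcr2*. The pair thus leaned on the low arrays, those at 4.73 and 4.95 for *Cxcr2*, where *Ccrl2* stood at 5.45 and 4.90. The lowest r was that of *Ccr1* and *Cx3cr1*, at −0.499 (adjusted permutation p = 0.532). *Ccr2* and *Cx3cr1*, the monocyte-type receptors, gave r = 0.308 (adjusted permutation p = 0.62).

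**Figure D4:**
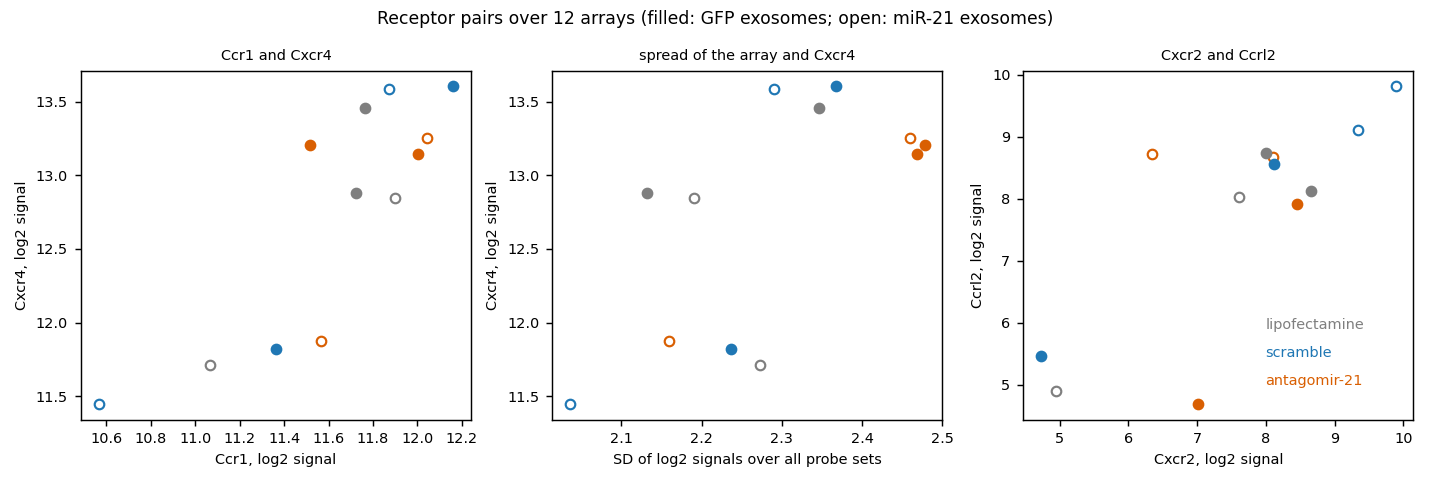
Log2 signals of *Cxcr4* against *Ccr1* (left), of *Cxcr4* against the SD of all log2 signals of the array (middle) and of *Ccrl2* against *Cxcr2* (right), with 1 point per array, filled for GFP and open for miR-21 exosomes and colored by transfection. The points of the first *Ccr1* probe set and *Cxcr4* rise together (r = 0.843). *Cxcr4* also rises with the spread of the array (r = 0.663), and the right panel has 2 arrays low in both genes.

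The pairs of receptors that lie near each other in the genome were also read. In RefSeq, *Ccr1*, *Ccr3* and *Ccr2* lie in 1 cluster, with *Ccr1* next to *Ccr1l1*, *Ccr1l1* next to *Ccr3* and *Ccr3* next to *Ccr2*. The r was 0.374 for *Ccr2* and *Ccr3*, 0.201 for *Ccr1* and *Ccr3* and −0.342 for *Ccr1* and *Ccr2*, none with an adjusted permutation p under 0.05. With so few arrays, these values cannot show that the receptors share no pattern.

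Among the other genes with a mean above the median, those whose signal ran closest to each receptor over the 12 arrays were *Smc6* (r = 0.936) and *Cat* (0.928) for *Ccr1*, *Ep300* (0.967) and *Parp1* (0.966) for *Cxcr4*, and *Papss2* (0.985) and *Rbm46* (0.975) for *Ccr2*. The closest to *Ccrl2* were *Pax9* (0.943) and *Etv4* (0.930), to *Cxcr2* *Lipg* (0.928) and *Mbip* (0.905), to *Ccr3* *Mcc* (0.898) and *Cdca2* (0.887), and to *Cx3cr1* *2810002D19Rik* (0.866) and *St6galnac6* (0.832). They were picked from about 9096 genes, so high values are found by selection. On the array where *Ccr2* was lowest, *Papss2* read 5.44 and *Rbm46* 3.77, against 9.16 to 10.07 and 8.71 to 10.32 on the other 11 arrays, so these correlations rest on that array.

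The ligands of the 7 receptors were read from a list of 17 genes. *Ccl6* (mean 16.15 ± 0.79), *Ccl9* (13.41 ± 0.85) and *Ccl3* (10.64 ± 0.80), all ligands of CCR1, lay above the olfactory reference on all 12 arrays. *Ccl2*, the main ligand of CCR2, and *Cxcl2*, a ligand of CXCR2, did so on 11 arrays each. The ligands of the remaining receptors were mostly at the level of the reference, with *Cx3cl1* above it on none, *Cxcl12*, *Rarres2* (chemerin) and *Ccl11* on 1 each and *Ccl24* on 3. *Ccl5*, a further ligand of CCR1, was above it on none.

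Of the 17 ligands, 7 were higher and 10 lower with miR-21 exosomes over all transfections, with a median of −0.43. *Cxcl12* was 2.23 (SE 0.97) higher and *Rarres2* had a difference of −1.68 (SE 0.72), both at an unadjusted p under 0.05 and an adjusted p of 0.903 in limma. With antagomir-21 against scramble, 10 ligands were higher and 7 lower, with a median of 0.38, and *Ccl11* passed the unadjusted threshold (−2.25, SE 0.95, adjusted p = 1.0 in limma). *Cx3cl1*, the ligand of CX3CR1, was 0.98 higher and did not pass.

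Of 16 further chemokine and chemerin receptors measured, 10 lay at or under the olfactory reference on every array and 1 above it on all, the scavenger *Ackr4* (mean 14.43 ± 0.67, named after its values were seen). With antagomir-21, 8 were higher and 8 lower than with scramble, and *Ackr3*, a scavenger of CXCL12, had a difference of −3.02 (SE 1.04, unadjusted p = 0.0169 and adjusted p = 0.951 in limma). The CCR1-like gene *Ccr1l1* had a difference of 1.89 in the other direction (SE 0.82, unadjusted p = 0.0451 and adjusted p = 1.0 in limma). Downstream, 10 of 26 genes of G protein signaling and receptor desensitization lay above the reference on all 12 arrays. None of the 26 reached an unadjusted p under 0.05 in any of the 3 comparisons over pooled groups, and their medians were −0.07 for miR-21 exosomes, 0.16 for antagomir-21 and −0.16 for scramble against lipofectamine.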

How the data were processed

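RNA of PMs was amplified, biotin labeled and hybridized to Affymetrix Mouse 430 2.0 arrays. The log2 signals of 45037 probe sets were deposited as the authors made them. The methods describe RMA with quantile normalization, but the deposited arrays share a trimmed mean (496 to 499 before the log, leaving out the outer 2% at both ends) and not a distribution (medians 7.92 to 8.58, SD 2.04 to 2.48), so they are not quantile normalized, by a tool not given in the sources used here. Background levels are not in the table, and the number of arrays limits the precision.

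Groups came from the labels. Probe sets with 1 gene in the platform annotation (34945) were kept, those with several (932) or unlisted (9160) were left out, and the probe set of highest mean stood for each of 18193 genes, with symbols updated through RefSeq (GRCm38.p6). Gene coordinates are not given because no build is named for the arrays. limma 3.58.1 in R 4.3.3 was fitted to all genes with Benjamini-Hochberg adjustment. Single comparisons used 6 group means over 12 arrays, and pooled comparisons used the other factor as a term. Relations over arrays used 100000 permutations (Python 3.11.15). The procedure was tested on simulated data. The limma p values of single comparisons set each difference against the spread between arrays within groups. That spread is pooled over the 6 groups and moderated across all genes. In pooled comparisons the spread also holds any interaction of transfection with exosomes.

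The receptors, the gene lists and the comparisons were chosen with earlier results of these data known. Named genes are the 7 receptors, their ligands, the 2 genes most like each, defining markers, and list members with the smallest p. Normalization, the choice of probe set, a filter on low signal, the variance model, array weights, the methods' t-test, each array left out and a replicate block were tried as alternatives.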

Additional observations from a re-analysis of the deposited data

Results flagged for a closer look

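The exosome difference of *Cxcr2* had opposite signs in 2 transfections. The comparison was added because of these values, so its p is a description of them. The difference was 3.19 after scramble and −2.05 after lipofectamine, and the difference between them was 5.24 (SE 1.89, unadjusted p = 0.0190 and adjusted p = 1.0 in limma). An unadjusted p under 0.05 was reached by 3.8% of all 18193 genes in that comparison. *Ccrl2* had the same form, with a difference between scramble and lipofectamine of 4.42 (SE 2.04, unadjusted p = 0.0547 and adjusted p = 1.0 in limma). Between antagomir-21 and lipofectamine it was 4.36 for *Ccrl2* (SE 2.04, unadjusted p = 0.0577 and adjusted p = 0.999 in limma). These were singled out because the arrays moved in opposite directions in the transfections without overlap, and each rests on 4 groups of 2 arrays. Of all genes, 2.08% separated higher after scramble and lower after lipofectamine, and 2.48% higher after antagomir-21 and lower after lipofectamine. *Cxcr2* lay above the olfactory reference on 1 of 12 arrays and *Ccrl2* on 3.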

How the results depend on the processing

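Under all alternatives the count of receptors at an adjusted p under 0.05 stayed at 0. For 29 differences and 547 alternatives, 497 kept the direction and 50 turned it. Replicate numbers gave no pairing of arrays, since after removal of group means 15 correlations between groups ran from −0.192 to 0.167. With the number as a replicate block, 1 receptor still passed the unadjusted p for antagomir-21 against scramble and 1 for miR-21 exosomes after scramble, and no other count changed.

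The unadjusted count for antagomir-21 against scramble over both exosomes, 1 (*Cx3cr1*), was 0 with the mean over probe sets, with the filter on genes above the median signal, which leaves *Cx3cr1* out, and with an intensity trend. With miR-21 exosomes it went from 0 to 2 with the mean over probe sets and to 1 with the methods' t-test. For miR-21 exosomes after scramble it went from 1 (*Cxcr2*) to 0 with quantile normalization, median centring, the probe set of highest variance, the filter (which leaves *Cxcr2* out), an intensity trend, array weights and the methods' t-test. For the interaction it went from 0 to 1 with the mean over probe sets. The cause was not tested. When each array was left out in turn, the count ran from 0 to 1 for antagomir-21 with GFP exosomes, 0 to 1 with miR-21 exosomes, 0 to 2 for the exosomes after scramble, 0 to 1 after antagomir-21, 0 to 1 for the interaction and 0 to 1 for any difference among the groups.

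Apart from the antagomir-21 difference of *Cx3cr1*, which passed the unadjusted threshold, the remaining values are differences that passed no threshold. Other probe sets, with mean signals of 10.49 (*Ccr1*) and 6.91, 6.73 and 6.54 (*Ccr2*), turned several. The exosome difference of *Ccr1* became 0.035 with its other probe set, which is also the one of highest variance, and that of *Ccr2* became 0.36 with the mean over probe sets, 0.80, 0.29 and 0.95 with the others in order of mean, and 0.95 with the one of highest variance, the last of them. For antagomir-21 against scramble, *Ccr2* became 0.17 with that last one and *Cx3cr1* 0.48 with its second. For scramble against lipofectamine, *Ccr1* became 0.0086 with its other probe set, *Ccr2* −0.46 with the mean and −0.87, −0.10 and −0.96 with the others, and *Cx3cr1* −0.25 with the mean and −1.46 with its second. Among scalings, the exosome difference of *Cxcr2* became −0.033 with quantile normalization, −0.068 with median centring and −0.17 with array weights, and the antagomir-21 difference of *Cxcr4* became −0.0092 with quantile normalization. With array weights the difference between scramble and lipofectamine became 0.43 for *Ccr3* and 0.0042 for *Cxcr4*.

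With each array left out, the exosome difference ran from −1.01 to 0.078 for *Ccr2*, −0.69 to 0.49 for *Cx3cr1* and −0.58 to 0.83 for *Cxcr2*. The antagomir-21 difference ran from −0.029 to 0.51 for *Ccr1*, −1.91 to 0.40 for *Ccr3*, −1.58 to 0.19 for *Cxcr2* and −0.14 to 0.72 for *Cxcr4*. The difference between scramble and lipofectamine ran from −0.36 to 0.17 for *Ccr1*, −0.076 to 0.26 for *Ccr2*, −0.78 to 0.63 for *Ccr3*, −0.34 to 1.92 for *Cxcr2*, −0.61 to 0.32 for *Cxcr4* and −0.28 to 1.85 for *Ccrl2*. A group left with 1 array was assumed to vary like the others. With 2 arrays per group, an exact permutation test cannot reach an unadjusted p under 0.05 within single groups.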

Other observations

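Over all genes, the mean r between arrays was 0.591 for the 6 pairs of a shared group and 0.602 for the 60 pairs of unlike groups. The receptors with signal near the olfactory reference changed by several log2 units between arrays of 1 group, as in antagomir-21 with GFP exosomes, where *Ccr3* read 8.84 and 3.92 and *Ccrl2* 7.92 and 4.69, while *Cxcr4* read 13.14 and 13.21.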
